A study of Mus musculus with 11 samples.

Results

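The genes described here are 10 genes of glycolysis and lactate formation, taken from a fixed list of gene symbols: Slc2a1, Hk1, Hk2, Pfkp, Aldoa, Gapdh, Pgk1, Eno1, Pkm and Ldha. They are 10 of the 55536 annotated mouse genes counted in each library, and all 10 were among the 20307 genes with enough counts to be tested. The rule that lists them uses no measured value, but the list was chosen with earlier results of these data known. RNA was sequenced from epidermal cells of the dorsal skin of male CD4Cre R26-tdT mice on the C57Bl6/N background, in which a Cre recombinase under Cd4 regulatory sequences switches on the red fluorescent protein tdTomato (tdT) in cells that have expressed Cre and in their descendants. Cells were sorted by flow cytometry into 4 groups, all labelled as positive for the basal keratinocyte integrin CD49f and for the surface marker CD34. The tdT+ and tdTneg cells without Sca-1 (CD49f+CD34+Sca-1neg, named CD34+ below) gave 3 libraries each, the tdT+ cells with Sca-1 (CD49f+CD34+SCA-1+, named SCA-1+ below) gave 3, and the tdTneg SCA-1+ cells gave 2. Every library came from a pool of 2 mice, which were 29 weeks old for replicate 1 and 32 weeks old for replicates 2 and 3, so that age moved with the replicate number. Libraries of the same number were read as sorts of 1 pool, and the main fit did not pair them. All groups carry both transgenes, T cells also express CD4, and the label tdT+ therefore marks a history of Cre expression and not a cell type.

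Glycolysis converts glucose to pyruvate. Glucose enters through the facilitative transporter GLUT1 (Slc2a1), is trapped as glucose 6-phosphate by hexokinases (Hk1, Hk2), is committed to the pathway by phosphofructokinase (Pfkp is the platelet-type isozyme), and is split and oxidised by aldolase (Aldoa), glyceraldehyde 3-phosphate dehydrogenase (Gapdh), phosphoglycerate kinase (Pgk1), enolase (Eno1) and pyruvate kinase (Pkm). Lactate dehydrogenase A (Ldha) favours the reduction of pyruvate to lactate, which leaves the cell through monocarboxylate transporters. Hair follicle stem cells of the bulge are known for a glycolytic programme with lactate dehydrogenase activity, and many glycolytic genes are targets of the oxygen-sensing factor HIF-1 and of MYC.

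The libraries held 17409131 to 46542177 counts in genes. Keratinocyte genes were abundant in all 11 libraries (5 markers, summed in counts-per-million, CPM, with library totals scaled by TMM factors), at 12900 to 16100 CPM in tdT+CD34+, 17800 to 19300 in tdTnegCD34+, 25800 to 32700 in tdT+SCA-1+ and 18500 to 21800 in tdTnegSCA-1+ libraries, and 2 of the 5 were called higher in SCA-1+ cells. The bulge list (6 markers) summed to 8070 to 12400 in tdT+CD34+, 12300 to 15000 in tdTnegCD34+, 3330 to 5420 in tdT+SCA-1+ and 4300 to 5250 in tdTnegSCA-1+ libraries, with no marker at 0 in any group. Of the sorted surface markers, Cd34 RNA was at 468 to 1130 CPM in the CD34+ and 320 to 383 CPM in the tdTnegSCA-1+ libraries, but at 22.3 to 35.7 CPM in the tdT+SCA-1+ libraries, a level that goes against the CD34+ label of that group, which is kept here as a name. Ly6a, which encodes Sca-1, was at 2.46 to 59.2 CPM in the CD34+ and 153 to 294 CPM in the SCA-1+ libraries, and Itga6 (CD49f) at 387 CPM or more in all. Each file also held 1 row outside the annotated genes, which the files do not describe. It had 133 to 307 CPM in the tdT+ libraries except the library labelled tdT+CD34+ replicate 2, where it had 2.05, as against 2.54 to 4.89 in the tdTneg libraries. The tdT status of that library is therefore in doubt, and every value that sets tdT+CD34+ cells against another group rests on its label. Several counts and ranges that this library decides are also given without it, and per-library values include it. Shares of all genes past a threshold are those with all 11 libraries unless stated.

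By the annotation, in the GRCm38 coordinates of the authors' mm10 build, the members lie at these places: Slc2a1 (ENSMUSG00000028645, chr4:119108711-119137983, forward strand), Hk1 (ENSMUSG00000037012, chr10:62268855-62379908, reverse strand), Hk2 (ENSMUSG00000000628, chr6:82725025-82774454, reverse strand), Pfkp (ENSMUSG00000021196, chr13:6579768-6648777, reverse strand), Aldoa (ENSMUSG00000030695, chr7:126795234-126800751, reverse strand), Gapdh (ENSMUSG00000057666, chr6:125161715-125166467, reverse strand), Pgk1 (ENSMUSG00000062070, chrX:106187100-106203699, forward strand), Eno1 (ENSMUSG00000063524, chr4:150236721-150248879, forward strand), Pkm (ENSMUSG00000032294, chr9:59656368-59679375, forward strand) and Ldha (ENSMUSG00000063229, chr7:46841475-46855627, forward strand). The counts are of reads in the exons of each gene.

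Several of these enzymes have near-identical copies in the mouse genome, and how the authors counted reads that match several places is not given in the sources used here. Gapdh has 251 pseudogene copies of at least 90% identity over at least 200 bases, whose own counts equalled 58.2 to 223% of the Gapdh count. Pgk1 has the copies Pgk1-rs7 (100% over 1255 bases) and Gm5537 (100% over 1252 bases), and Eno1 has Eno1b (99.5% over 1736 bases) and Gm4735 (99.6% over 1302 bases). Gapdh, Pgk1 and Eno1 were also the 3 lowest members per kb of exon, with means over the 11 libraries of 8.85, 5.57 and 18.9 CPM per kb, and the level of these 3 genes against other genes is therefore uncertain. The remaining 7 ranged from 20.8 (Hk1) to 166 (Aldoa) on that scale, with Ldha at 102, Pkm at 90.2 and Slc2a1 at 89.2 close together and their ranges over libraries overlapping. Pfkp overlaps Pitrm1 on the opposite strand and Pkm overlaps Gm49759, and whether reads were counted by strand is also not given.

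The stretches before the start sites of the members are shown because HIF-1 binds the core ACGTG or GCGTG. Over the 250 bases before each start in the RefSeq windows (build GRCm38.p6, both strands searched), all 10 members held at least 1 of these cores in some window. The share of all genes that do so was not computed, so this count cannot be judged against it. ACGTG was found in 7 of the members' 17 windows (41.2%), in Slc2a1, Hk2, Aldoa, Pgk1, Pkm and Ldha, and in 16.6% of all 32851 windows. GCGTG was found in 8 of the 17 (47.1%), in Slc2a1, Hk1, Pfkp, Gapdh, Eno1 and Ldha, and in 28.2% of all windows. Windows of 1 gene overlap in part, and a match is a description of letters, not a binding site. The longer core CACGTG, which MYC binds and which contains ACGTG on both strands, occurred in Ldha alone among the members and in 6.02% of all windows. Stretches that no annotated exon of the gene covers are printed for Pgk1 and Pfkp, which were higher in SCA-1+ cells, for Ldha, which holds the most matches, and for Hk2, which was not higher, with the cores in capitals. They span chrX:106186850-106187099 (forward strand), chr13:6648778-6649021 (reverse), chr7:46845554-46845803 (forward) and chr6:82774455-82774704 (reverse). In 13 of the 17 windows the bases just after the start lay in an annotated transcript of the gene. The printed Ldha window was not among these, and it lies inside the annotated gene, which begins at chr7:46841475. All ACGTG and CACGTG matches of Ldha come from this window.
Pgk1: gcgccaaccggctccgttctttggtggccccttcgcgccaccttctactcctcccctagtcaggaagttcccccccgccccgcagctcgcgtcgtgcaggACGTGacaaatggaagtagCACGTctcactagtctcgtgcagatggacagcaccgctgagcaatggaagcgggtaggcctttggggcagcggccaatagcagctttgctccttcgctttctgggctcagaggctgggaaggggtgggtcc
Pfkp: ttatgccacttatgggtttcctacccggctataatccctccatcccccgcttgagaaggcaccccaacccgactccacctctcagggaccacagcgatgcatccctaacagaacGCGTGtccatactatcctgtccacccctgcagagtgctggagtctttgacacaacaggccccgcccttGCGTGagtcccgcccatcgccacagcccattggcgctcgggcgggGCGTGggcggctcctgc
Ldha: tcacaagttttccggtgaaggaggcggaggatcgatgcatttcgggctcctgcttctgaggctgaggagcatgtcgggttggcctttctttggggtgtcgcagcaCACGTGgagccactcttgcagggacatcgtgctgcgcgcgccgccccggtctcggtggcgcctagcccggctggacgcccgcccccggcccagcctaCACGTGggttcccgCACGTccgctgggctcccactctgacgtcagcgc
Hk2: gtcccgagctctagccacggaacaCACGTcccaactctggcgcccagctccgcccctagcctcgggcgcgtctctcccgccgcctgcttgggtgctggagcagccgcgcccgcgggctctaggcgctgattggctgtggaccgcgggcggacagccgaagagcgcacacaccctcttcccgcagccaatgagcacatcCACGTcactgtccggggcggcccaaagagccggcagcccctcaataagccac
In Pgk1 the cores begin 150 and 131 bases before the start, and in Pfkp they begin 136, 68 and 23 bases before it. In Ldha the first CACGTG begins 145 bases before the start, the other begins 48 bases before it, and a single core follows at 34 bases. In Hk2 the cores begin 226 and 52 bases before the start. The Slc2a1 cores begin 61 and 36 bases before its RefSeq start and are not printed, since the annotated first exon begins within the second.

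The first question was how the SCA-1+ population compared with the CD34+ population. The glucose transporter and most enzymes below hexokinase were higher in SCA-1+ cells, by 1.52-fold to 1.85-fold in the mean over tdT status, whereas the hexokinases were not. At an adjusted p under 0.05 (edgeR quasi-likelihood test, Benjamini-Hochberg adjusted over all 20307 genes), 6 of 10 members were higher and 0 were lower: Slc2a1, Pgk1, Eno1, Pfkp, Aldoa and Pkm. Of all genes tested, 8.88% were higher at that threshold. None of the 10 members passed the fuller criterion, which also asks for more than a 2-fold difference (absolute log2 fold change over 1) and which 11.6% of all genes passed in either direction. With DESeq2 0 members passed it too, and 8 members had an unadjusted p under 0.05 in edgeR, as did 34.4% of all genes. The median log2 fold change of the members was 0.62, beside -0.09 over all genes tested. The 10 genes together took 0.165 to 0.219% of the counts of the 6 CD34+ libraries and 0.254 to 0.343% in the 5 SCA-1+ libraries, so that the populations did not overlap.

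Markers of other cells moved with these groups. The suprabasal interfollicular list (5 markers) summed to 1610 to 4110 CPM in tdT+CD34+, 491 to 1690 in tdTnegCD34+, 7480 to 10100 in tdT+SCA-1+ and 3090 to 6970 in tdTnegSCA-1+ libraries. The T cell list (6 markers) summed to 19.3 to 44.1, 1.22 to 4.53, 205 to 643 and 53.9 to 56.6 in the same order, and the endothelial list (5 markers) to 4.96 to 377, 25 to 83.2, 26.9 to 51.3 and 1460 to 1520. The Langerhans cell list (5 markers) summed to 420 to 646, 360 to 422, 436 to 615 and 769 to 889, most of it in the CD34+ cells from Epcam, which keratinocytes also express and which was lower in SCA-1+ cells. The other 4 Langerhans cell markers were all called higher in SCA-1+ cells, and without Epcam, an exclusion made after the values were seen, the list summed to 61.3 to 291, 13.6 to 60.2, 223 to 336 and 523 to 586. The cycling list (5 markers) summed to 156 to 289 in the CD34+ and 261 to 582 in the SCA-1+ libraries. The melanocyte list (5 markers) ran the other way, at 25.4 to 53, 57.1 to 63.1, 5.73 to 15.7 and 13.8 to 34.4, with 2 markers called lower in SCA-1+ cells. The erythroid list (5 markers) was at 45.6 to 176, 41.7 to 131, 1.42 to 26.8 and 30.1 to 39.2, with 1 called lower, and 3 within tdT+ cells. The fibroblast list (6 markers) was at 89.1 to 264, 87.8 to 297, 26.9 to 342 and 233 to 478, with 0 called in edgeR. The library labelled tdT+CD34+ replicate 2 held the highest endothelial, suprabasal and Langerhans cell sums of its group. Without it the tdT+CD34+ ranges were 4.96 to 57.1 CPM for the endothelial list, 1610 to 2440 for the suprabasal list, 61.3 to 107 for the 4 Langerhans cell markers other than Epcam and 87.5 to 176 for the erythroid list, and 3 endothelial and 4 cycling markers were called higher in SCA-1+ cells instead of 0 and 1. In that setting 1 melanocyte marker was called lower in SCA-1+ cells, and 2 erythroid markers within tdT+ cells, instead of 2 and 3. The tdT+CD34+ range of the melanocyte list was then 29 to 53 CPM. The part of these cells in the values of the members was not tested. In bulk RNA, a difference in the number of cells of a type and a difference in RNA per cell cannot be told apart.

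**Figure D1:**
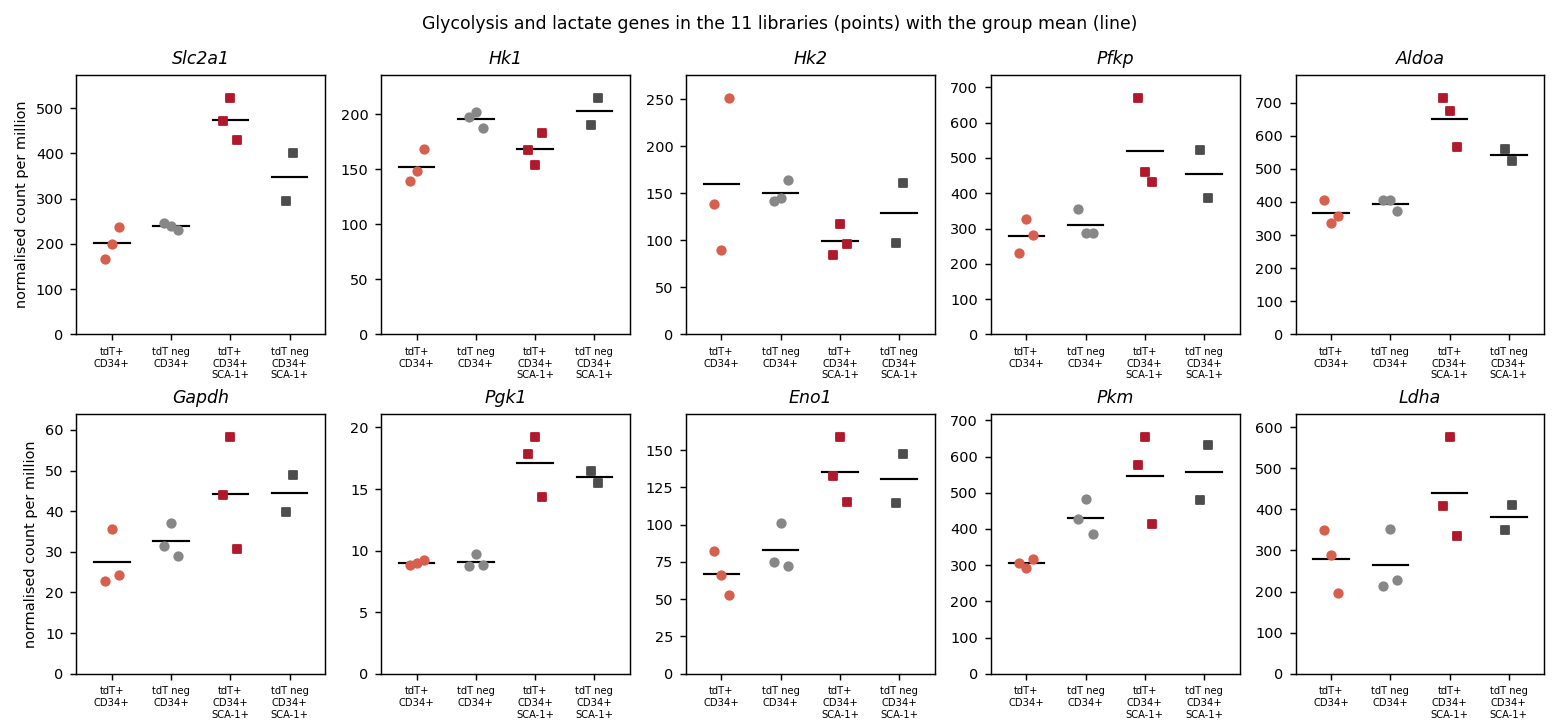
Normalised CPM (vertical axis, linear from 0, a scale for each gene) of the 10 members in the 4 sorted groups; points are the 11 libraries and lines are group means. For Slc2a1, Pfkp, Aldoa, Pgk1 and Eno1 all 5 SCA-1+ libraries lie above all 6 CD34+ libraries, while the Hk1 and Hk2 values overlap.

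Slc2a1 encodes the main glucose transporter of basal keratinocytes. Its levels were 167, 200.4 and 238 CPM in tdT+CD34+, 245, 240.3 and 232 in tdTnegCD34+, 470.4, 522 and 429.8 in tdT+SCA-1+ and 296 and 401 in tdTnegSCA-1+ cells. All 5 SCA-1+ libraries lay above all 6 CD34+ libraries, the highest values being those of the tdT+SCA-1+ cells. The difference between the populations was 1.85-fold (log2 fold change 0.89, SE 0.13, adjusted p = 0.00129). The facilitative transporter Slc2a3 was much lower, and Slc2a1 made up 98.3 to 99.1% of the sum of both per kb of exon in CD34+ and 99.0 to 99.6% in SCA-1+ libraries.

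The hexokinases did not share this pattern. Hk1, the constitutive form, had 139, 148 and 169 CPM in tdT+CD34+, 197, 202 and 187 in tdTnegCD34+, 168, 154 and 183 in tdT+SCA-1+ and 191 and 215 in tdTnegSCA-1+ cells. These values overlapped between the populations, and all 6 tdT+ libraries lay below all 5 tdTneg libraries, a separation seen after the values were known that 0.591% of all genes showed in this direction. The fitted difference between the populations was 0.10 on the log2 scale, with a 95% interval of -0.11 to 0.30 (adjusted p = 0.49). Hk2, the inducible form, had 138, 89.8 and 251 CPM in tdT+CD34+, 142, 145 and 164 in tdTnegCD34+, 84.1, 117 and 95.6 in tdT+SCA-1+ and 97.6 and 160.5 in tdTnegSCA-1+ cells. It varied most within groups, with a within-group SD of 0.46 on the log2 scale, and tdT+CD34+ replicate 3 stood above every other library. Its difference between the populations was -0.46 (95% interval -1.01 to 0.10, adjusted p = 0.228), an interval that holds both 0 and a 2-fold lower level. Hk2 formed 46.4 to 68.0% of the summed Hk1 and Hk2 level per kb in CD34+ and 41.8 to 52.0% in SCA-1+ libraries, and these shares overlapped. Without the library labelled tdT+CD34+ replicate 2 the CD34+ range was 50.5 to 68.0%.

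At the phosphofructokinase step, Pfkp had 231, 326 and 282 CPM in tdT+CD34+, 355, 288 and 286 in tdTnegCD34+, 669, 461 and 432 in tdT+SCA-1+ and 521 and 388 in tdTnegSCA-1+ cells. The SCA-1+ libraries again lay above all CD34+ libraries, and the fitted difference was 1.65-fold (log2 fold change 0.72, SE 0.16, adjusted p = 0.012). Of the sister isozymes, the liver type Pfkl was higher as well (1.97-fold, log2 fold change 0.98, SE 0.13, adjusted p = 0.000784) and the muscle type Pfkm was lower (log2 fold change -0.60, SE 0.14, adjusted p = 0.016). Pfkp made up 42.2 to 54.1% of the 3 isozymes per kb in CD34+ and 48.3 to 57.4% in SCA-1+ libraries. The highest CD34+ share was that of the library labelled tdT+CD34+ replicate 2, without which the CD34+ range was 42.2 to 49.2%.

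Aldoa, the ubiquitous aldolase and the highest member per kb, had 406, 336 and 356 CPM in tdT+CD34+, 405, 406 and 372 in tdTnegCD34+, 714, 673 and 566 in tdT+SCA-1+ and 559 and 524 in tdTnegSCA-1+ cells. Its groups were tight, with a within-group SD of 0.13 on the log2 scale, and the populations did not overlap. The difference was 1.56-fold (log2 fold change 0.64, SE 0.11, adjusted p = 0.00262).

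In the lower, energy-yielding part of the pathway, Gapdh had 22.7, 35.6 and 24.4 CPM in tdT+CD34+, 31.5, 37.2 and 29.1 in tdTnegCD34+, 44, 58.1 and 30.8 in tdT+SCA-1+ and 39.9 and 49 in tdTnegSCA-1+ cells. The populations overlapped, since tdT+SCA-1+ replicate 3 lay below 3 of the 6 CD34+ libraries. The difference of 1.48-fold missed the threshold (log2 fold change 0.57, SE 0.19, adjusted p = 0.0608), passed it with the replicate number as a block (log2 fold change 0.49, adjusted p = 0.0306), and was 0.23 with the counts of the 251 copies added.

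Pgk1, which forms the first ATP of the pathway, had 8.79, 9.0 and 9.26 CPM in tdT+CD34+, 8.72, 9.7 and 8.81 in tdTnegCD34+, 17.8, 19.2 and 14.3 in tdT+SCA-1+ and 16.4 and 15.5 in tdTnegSCA-1+ cells. The 6 CD34+ libraries spanned 8.72 to 9.70 CPM and the 5 SCA-1+ libraries 14.3 to 19.2 CPM. The fitted difference was 1.83-fold (log2 fold change 0.87, SE 0.15, adjusted p = 0.00343). Eno1 had 82.1, 66 and 52.9 CPM in tdT+CD34+, 74.9, 101 and 72.3 in tdTnegCD34+, 132, 158 and 115 in tdT+SCA-1+ and 114 and 147 in tdTnegSCA-1+ cells. Here too every SCA-1+ library exceeded every CD34+ library, and the fitted difference between the populations was 1.79-fold (log2 fold change 0.84, SE 0.15, adjusted p = 0.00483).

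Pkm, which makes pyruvate, had 307, 291 and 316 CPM in tdT+CD34+, 428, 482 and 386 in tdTnegCD34+, 577, 653 and 413 in tdT+SCA-1+ and 481 and 632 in tdTnegSCA-1+ cells. The tdT+CD34+ libraries were the lowest, and tdT+SCA-1+ replicate 3 and tdTnegSCA-1+ replicate 1 did not exceed the highest tdTnegCD34+ library, so that the populations overlapped. The difference was 1.52-fold (log2 fold change 0.61, SE 0.14, adjusted p = 0.016). Ldha had 349.6, 288 and 197 CPM in tdT+CD34+, 213, 353 and 228 in tdTnegCD34+, 408, 575 and 335 in tdT+SCA-1+ and 349.8 and 411 in tdTnegSCA-1+ cells. Its populations overlapped as well, and the difference of 1.51-fold missed the threshold (log2 fold change 0.59, SE 0.21, adjusted p = 0.0738). Within the CD34+ groups, Ldha was highest in tdTnegCD34+ replicate 2, tdT+CD34+ replicate 1 and the library labelled tdT+CD34+ replicate 2.

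That 5 members showed all SCA-1+ libraries above all CD34+ libraries is to be read against 5.1% of all genes that did so. Without the library labelled tdT+CD34+ replicate 2 the same 5 genes separated, beside 6.65% of all genes, and 7 members were higher at an adjusted p under 0.05, with log2 fold changes of 0.59 (Pkm) to 0.88 (Slc2a1). The share of all genes higher at that threshold without this library is not given here. Over the 18 alternative settings and left-out libraries, the fold changes of Slc2a1, Aldoa, Pgk1 and Eno1 kept an adjusted p under 0.05, at most 0.0287, whereas those of Pfkp and Pkm reached 0.0846 and 0.075.

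**Figure D2:**
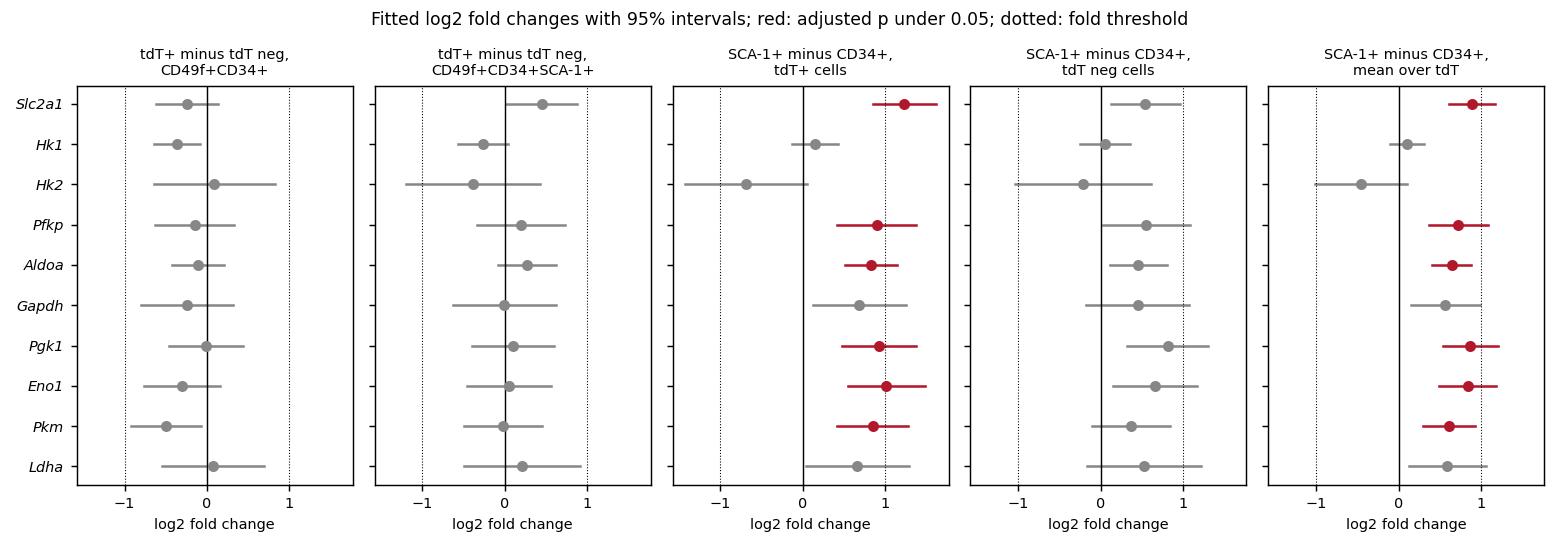
Fitted log2 fold changes (horizontal axis) of the 10 members in 5 comparisons, with 95% intervals; red marks an adjusted p under 0.05 and dotted lines mark the fold threshold at 1 and -1. The SCA-1+ panels lean to the right from Slc2a1 to Ldha except for Hk1 and Hk2, and the tdT panels hold no red interval.

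Within the tdT+ cells the estimates of all 10 members were further from 0 than within the tdTneg cells, although no interaction test of that difference passed after adjustment. Slc2a1 (2.35-fold, log2 fold change 1.23, SE 0.17, adjusted p = 0.00197) and Eno1 (2.02-fold, log2 fold change 1.01, SE 0.21, adjusted p = 0.0124) passed both the adjusted p and the fold threshold, 2 of 10 members beside 8.45% of all genes. Pgk1 (log2 fold change 0.93, SE 0.20, adjusted p = 0.0162), Pfkp (log2 fold change 0.90, SE 0.22, adjusted p = 0.0244), Pkm (log2 fold change 0.85, SE 0.19, adjusted p = 0.0187) and Aldoa (log2 fold change 0.83, SE 0.14, adjusted p = 0.00535) passed the adjusted p alone. In total, 6 members were higher at an adjusted p under 0.05, as were 5.66% of all genes, and 0 were lower. In 6 members (Slc2a1, Pfkp, Aldoa, Pgk1, Eno1 and Pkm) the 3 tdT+SCA-1+ libraries stood above the 3 tdT+CD34+ libraries, which 15.4% of all genes did. Hk2 was estimated at -0.69 (adjusted p = 0.189).

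These counts depended on single libraries, and the shares of all genes past these thresholds with a library left out are not given here. The number of members past both thresholds was 5 without tdT+SCA-1+ replicate 3, and 1 without tdT+CD34+ replicate 3 or tdT+SCA-1+ replicate 2, and the number at an adjusted p under 0.05 was 3 without tdT+CD34+ replicate 1. Eno1 sits at the fold threshold, with estimates of 0.86 to 1.19 over the settings. Without the library labelled tdT+CD34+ replicate 2, 3 members passed both thresholds (Slc2a1, Pfkp and Eno1) and 5 were higher at an adjusted p under 0.05. In that setting 7 members lay wholly above in the tdT+SCA-1+ libraries, Gapdh being added, as 19.5% of all genes did, and Hk2 lay wholly below, as 19.2% did.

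Within the tdTneg cells, with 2 SCA-1+ libraries, none of the 10 members passed either criterion in the edgeR test, where 4.74% of all genes passed both and 3.84% were higher at an adjusted p under 0.05. An unadjusted p under 0.05 was reached by 5 members and by 21.1% of all genes. DESeq2 found 5 members higher at an adjusted p under 0.05. The share of all genes that DESeq2 found higher is not given here, and the shares above are those of edgeR. The estimates were positive for 9 of 10 members, with a median of 0.49 on the log2 scale beside -0.13 over all genes. Pgk1 came nearest (log2 fold change 0.82, SE 0.22, adjusted p = 0.061), followed by Aldoa (log2 fold change 0.46, SE 0.16, adjusted p = 0.125), Eno1 (log2 fold change 0.66, SE 0.23, adjusted p = 0.128) and Slc2a1 (log2 fold change 0.54, SE 0.19, adjusted p = 0.129). For 6 members (Slc2a1, Pfkp, Aldoa, Gapdh, Pgk1 and Eno1) both SCA-1+ libraries lay above the 3 CD34+ libraries, which 19.9% of all genes did.

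The next question was whether tdT+ cells differed from tdTneg cells of the same population. In CD34+ cells none of the 10 members passed either criterion with edgeR, nor both thresholds with DESeq2, beside 0.00985% of all genes that passed both (2 genes). The estimates were negative for 8 members with a median of -0.20, beside -0.03 over all genes. Hk1 (log2 fold change -0.36, SE 0.12, adjusted p = 0.465) and Pkm (log2 fold change -0.50, SE 0.19, adjusted p = 0.516) were the 2 members with an unadjusted p under 0.05 (0.0143 and 0.0248), a threshold that 8.42% of all genes passed. Both also had all 3 tdT+ libraries below all 3 tdTneg libraries, as 10.9% of all genes did. For Pkm the tdT+ libraries had 307, 291 and 316 CPM and the tdTneg libraries 428, 482 and 386 CPM. Without the library labelled tdT+CD34+ replicate 2, 4 members lay wholly below (Hk1, Pfkp, Gapdh and Pkm), as 17.4% of all genes did, and again none passed. Since the tdT status of that library is in doubt, the values with all 3 libraries compare groups as labelled.

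In SCA-1+ cells, where 2.31% of all genes passed both thresholds, none of the 10 members did with edgeR or DESeq2. Slc2a1 had 470.4, 522 and 429.8 CPM in tdT+ and 296 and 401 CPM in tdTneg libraries, without overlap, and an unadjusted p of 0.0422 (log2 fold change 0.44, SE 0.19, adjusted p = 0.318). It was the 1 member with an unadjusted p under 0.05, as 14.6% of all genes were. Slc2a1 and Aldoa lay wholly above in tdT+ cells, as 15.8% of all genes did, and Hk1 lay wholly below (log2 fold change -0.27, SE 0.14, adjusted p = 0.424), as 17.2% did. Hk1 thus had the lower values in tdT+ cells of both populations, with neither comparison passing after adjustment. Marker lists also moved with tdT status within the SCA-1+ cells. The sums given above for these cells did not overlap for the keratinocyte, suprabasal and T cell lists, higher in tdT+ cells, and for the endothelial, Langerhans cell and erythroid lists, lower in tdT+ cells, with 3 T cell markers called higher and 1 endothelial marker called lower in tdT+ cells. Of the 6 bulge markers, 3 were called lower in tdT+SCA-1+ cells (Cd34, Lgr5 and Lhx2), although the bulge sums overlapped. The dissociation-response list (8 genes, among them Fos, Jun and Hspa1a) summed to 12300 to 16400 CPM in tdT+SCA-1+ and 11000 to 11200 in tdTnegSCA-1+ libraries, and to 9760 to 16600 in tdT+CD34+ and 13700 to 17100 in tdTnegCD34+ libraries. Its estimates between tdT+ and tdTneg SCA-1+ cells were positive for 8 of 8 genes with a median of 0.41 on the log2 scale, beside 0.04 over all genes, and 0 were called. The skeletal muscle list (5 markers) was near 0, at 3.2 to 5.68 CPM in tdT+SCA-1+ and 1.49 to 1.76 in tdTnegSCA-1+ libraries, and at 2.19 to 21.3 in the CD34+ libraries, with 0 called by tdT status in SCA-1+ cells. The part of these lists in the values of the members was not tested. Of the 95% intervals of the other members, that of Hk2 was the widest, at -1.20 to 0.43 on the log2 scale.

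Whether tdT status acted differently in the 2 populations was tested as an interaction. None of the 10 members passed both thresholds with edgeR or DESeq2, beside 0.389% of all genes. Slc2a1 had the largest estimate (log2 fold change 0.69, SE 0.26, adjusted p = 0.303) and was the 1 member with an unadjusted p under 0.05 (0.0219), as 12.4% of all genes were. The interval for Ldha ran from -0.80 to 1.07, which includes a difference of 2-fold in the tdT effect.

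The 83 further genes of the pathway, in 5 lists of related function, had positive estimates in 46 of the 82 tested, beside 44.1% of all genes. Among all 82, 9 were called higher and 5 lower in SCA-1+ cells in the mean over tdT status, beside 4.77% of all genes called higher and 6.79% called lower. Without the library labelled tdT+CD34+ replicate 2, 8 were called higher and 6 lower, 12 of them the same genes, with Egln3 among those lost and Hif3a and Ldhb gained. With all libraries, 0 were called between tdT+ and tdTneg cells of either population. Among the 24 other glycolytic steps and isozymes (23 tested), 1 was called higher and 1 lower, with a median log2 fold change of -0.20. The gene called higher was the glucose transporter Slc2a12 (2.94-fold, log2 fold change 1.56, SE 0.29, adjusted p = 0.00563). Glucose 6-phosphate isomerase (Gpi1), the step between hexokinase and phosphofructokinase, was higher without passing the fold threshold (log2 fold change 0.57, SE 0.12, adjusted p = 0.00897). Triosephosphate isomerase (Tpi1), the highest of this list per kb, had 219, 179.8 and 206 CPM in tdT+CD34+, 178, 213 and 226 in tdTnegCD34+, 288, 364 and 215 in tdT+SCA-1+ and 213 and 205 in tdTnegSCA-1+ cells, and its groups overlapped (log2 fold change 0.27, SE 0.14, adjusted p = 0.206). Phosphoglycerate mutase (Pgam1) did not pass (log2 fold change 0.46, SE 0.21, adjusted p = 0.14).

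**Figure D3:**
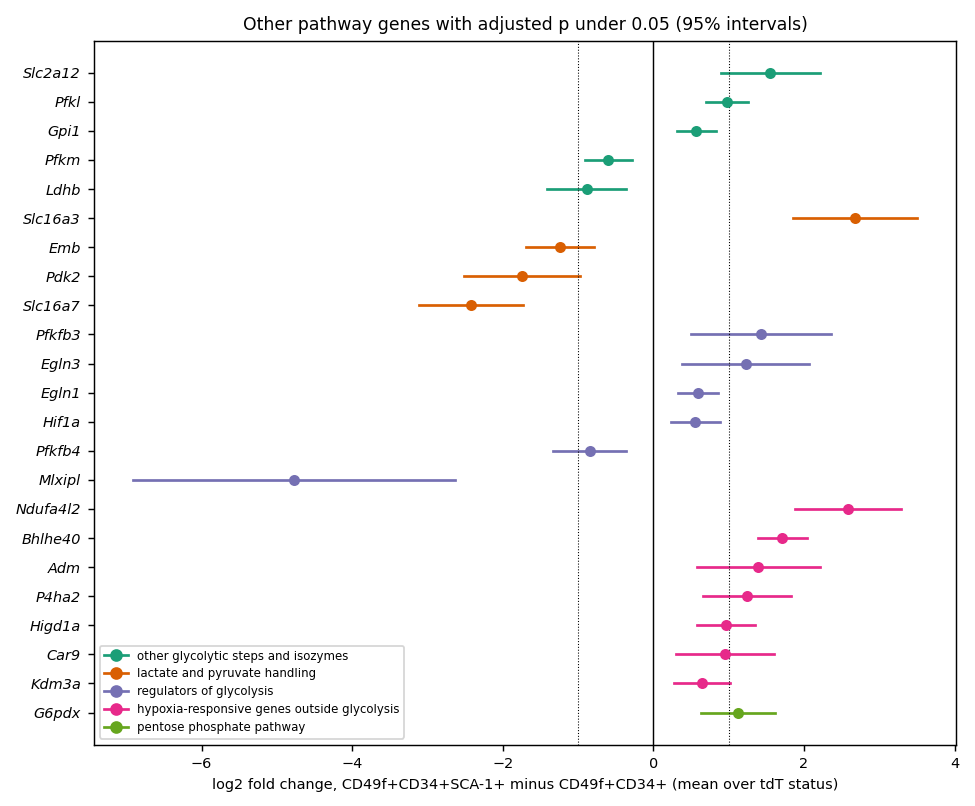
Log2 fold change (horizontal axis, SCA-1+ minus CD34+ cells, mean over tdT status) with 95% intervals of 23 listed pathway genes with an adjusted p under 0.05, coloured by list; dotted lines mark 1 and -1. All 7 hypoxia-responsive genes lie to the right, whereas the lactate and pyruvate list holds 1 gene to the right and 3 to the left.

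Of the 17 genes that handle lactate and pyruvate, 1 was called higher and 3 lower. Slc16a3 encodes MCT4, the transporter linked to lactate export from glycolytic cells. It had 11.2, 16.7 and 4.13 CPM in tdT+CD34+, 7.5, 4.28 and 3.32 in tdTnegCD34+, 69.3, 35.8 and 35.6 in tdT+SCA-1+ and 45.2 and 48.4 in tdTnegSCA-1+ cells. Every SCA-1+ library exceeded every CD34+ library, and the fitted difference between the populations was 6.39-fold (log2 fold change 2.68, SE 0.37, adjusted p = 0.00118). Slc16a7 encodes MCT2, a high-affinity transporter linked to uptake, and had 68.3, 34.7 and 20.9 CPM in tdT+CD34+, 41.7, 41.2 and 41 in tdTnegCD34+, 7.62, 6.81 and 4.28 in tdT+SCA-1+ and 10.8 and 8.13 in tdTnegSCA-1+ cells. It showed the opposite order (log2 fold change -2.43, SE 0.31, adjusted p = 0.000773). Slc16a1 (MCT1) did not pass (log2 fold change 0.19, SE 0.24, adjusted p = 0.625). The calls for Slc16a3 and Slc16a7 held within tdT+ cells (log2 fold change 2.14, SE 0.50, adjusted p = 0.0216 and log2 fold change -2.72, SE 0.40, adjusted p = 0.00265) and within tdTneg cells (log2 fold change 3.22, SE 0.55, adjusted p = 0.0122 and log2 fold change -2.13, SE 0.46, adjusted p = 0.0276).

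Of the chaperones that carry these transporters to the membrane, basigin (Bsg), the highest gene of the list per kb, did not pass (log2 fold change 0.13, SE 0.14, adjusted p = 0.538) and embigin (Emb) was lower (log2 fold change -1.24, SE 0.20, adjusted p = 0.00272). Pdk2, a kinase that inhibits pyruvate dehydrogenase and so holds pyruvate back from the mitochondrion, was also lower (log2 fold change -1.75, SE 0.35, adjusted p = 0.0072), with 70, 50.1 and 95.8 CPM in tdT+CD34+, 64.7, 59.8 and 70.3 in tdTnegCD34+, 16.7, 5.34 and 24.5 in tdT+SCA-1+ and 22 and 31.4 in tdTnegSCA-1+ cells. The SCA-1+ libraries of Emb and Pdk2 all lay below the CD34+ libraries, as those of 5.67% of all genes did.

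**Figure D4:**
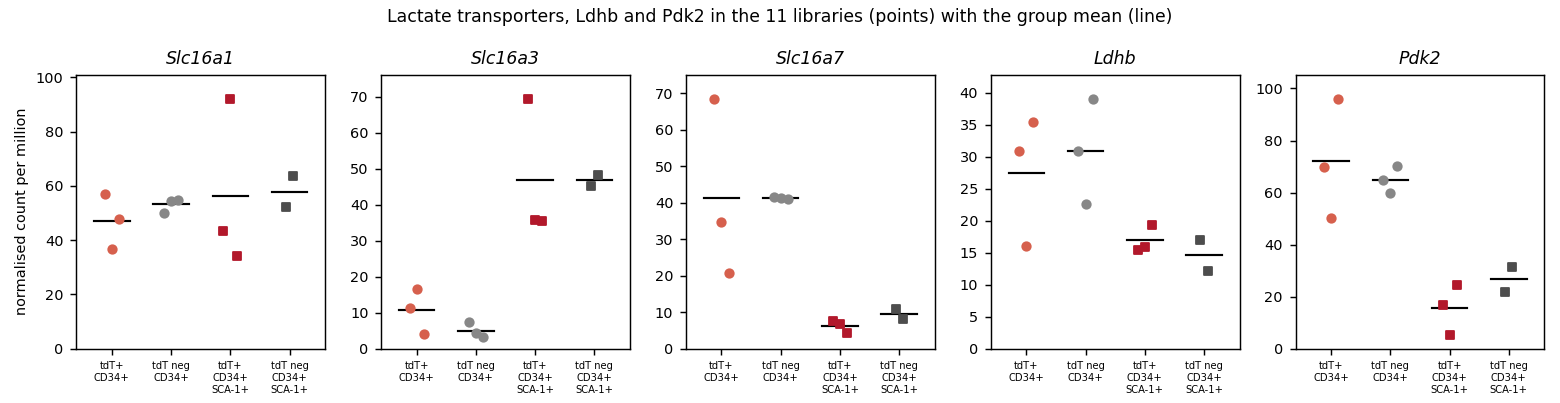
Normalised CPM (vertical axis, linear from 0) of the lactate transporters Slc16a1, Slc16a3 and Slc16a7, of Ldhb and of Pdk2 in the 11 libraries (points) with group means (lines). Slc16a3 is at 3.32 to 16.7 in CD34+ and 35.6 to 69.3 in SCA-1+ libraries, while Slc16a7 and Pdk2 run the other way.

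Ldhb, the heart-type subunit that favours lactate oxidation, had 30.9, 16.1 and 35.4 CPM in tdT+CD34+, 30.9, 22.6 and 39 in tdTnegCD34+, 15.5, 15.8 and 19.4 in tdT+SCA-1+ and 17.1 and 12.2 in tdTnegSCA-1+ cells. It was lower in SCA-1+ cells at an adjusted p under 0.05 (log2 fold change -0.89, SE 0.24, adjusted p = 0.0277), within the fold threshold and with overlapping libraries. Ldha made up 72.5 to 89.5% (median 80.4%) of the summed Ldha and Ldhb level per kb in CD34+ and 89.1 to 94.5% (median 92.6%) in SCA-1+ libraries. The ranges met only in the library labelled tdT+CD34+ replicate 2, at 89.5%, and tdT+SCA-1+ replicate 3, at 89.1%.

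**Figure D5:**
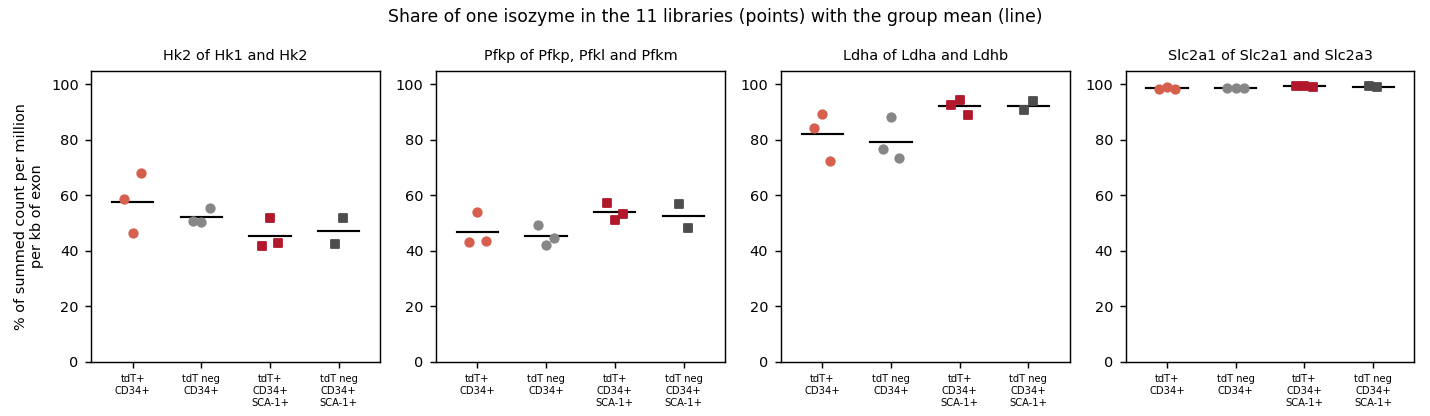
Share (vertical axis, percent of the summed CPM per kb of exon) of Hk2, Pfkp, Ldha and Slc2a1 among the isozymes or transporters named above each panel; points are the 11 libraries and lines group means. The Ldha share is above 89% in all SCA-1+ libraries and the Slc2a1 share above 98% throughout.

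Among the 20 regulators of glycolysis, 2 were called higher and 1 lower in SCA-1+ cells. The called genes were Pfkfb3, whose product makes the phosphofructokinase activator fructose 2,6-bisphosphate (log2 fold change 1.43, SE 0.42, adjusted p = 0.0396), the HIF prolyl hydroxylase Egln3 (log2 fold change 1.22, SE 0.38, adjusted p = 0.0482) and the glucose-sensing factor Mlxipl, or ChREBP (log2 fold change -4.77, SE 0.96, adjusted p = 0.00763). Pfkfb3 and Egln3, like P4ha2 and Adm, are named because they were called, after their values were seen. Mlxipl was at 129, 47.3 and 7.55 CPM in tdT+CD34+ and 6.41, 67.8 and 5.88 CPM in tdTnegCD34+ libraries, and at no more than 1.99 CPM in any SCA-1+ library. The 3 CD34+ libraries with the higher values were also those with the 3 highest Ldha values of the CD34+ groups, and a relation between these values was not tested. Hif1a, the oxygen-sensitive subunit of HIF-1, was higher within the fold threshold (log2 fold change 0.56, SE 0.14, adjusted p = 0.0245), and Myc did not pass (log2 fold change 0.14, SE 0.14, adjusted p = 0.521). Txnip, an inhibitor of glucose uptake and the highest of the list per kb, did not pass either (log2 fold change 0.09, SE 0.15, adjusted p = 0.709).

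Of the 15 hypoxia-responsive genes outside glycolysis, 14 had a positive estimate, with a median of 0.64 on the log2 scale. In the mean over tdT status, 4 were called higher, 7 were higher at an adjusted p under 0.05, and 0 were lower, beside 4.77%, 8.88% and, for calls, 6.79% of all genes. Without the library labelled tdT+CD34+ replicate 2, 4 were called higher and 6 were higher at an adjusted p under 0.05. Of all genes, 44.1% had a positive estimate. Ndufa4l2, a mitochondrial HIF-1 target, had 78.2, 87.7 and 45.6 CPM in tdT+CD34+, 53, 22.2 and 26 in tdTnegCD34+, 579.5, 392 and 286 in tdT+SCA-1+ and 269 and 139 in tdTnegSCA-1+ cells and was 6.0-fold higher in SCA-1+ cells (log2 fold change 2.58, SE 0.31, adjusted p = 0.000634). The repressor gene Bhlhe40 (log2 fold change 1.71, SE 0.15, adjusted p = 0.000139), the collagen prolyl hydroxylase gene P4ha2 (log2 fold change 1.24, SE 0.26, adjusted p = 0.00995) and adrenomedullin (Adm; log2 fold change 1.39, SE 0.37, adjusted p = 0.0264) were called as well. Ndufa4l2 and Bhlhe40 also passed both thresholds within tdTneg cells (log2 fold change 2.60, SE 0.46, adjusted p = 0.0136 and log2 fold change 1.94, SE 0.22, adjusted p = 0.00471). Within tdT+ cells 4 genes of this list were called higher. Higd1a was 1 of them (log2 fold change 1.23, SE 0.23, adjusted p = 0.00878), so not all 4 genes called in the mean were called there. From the other lists, the prolyl hydroxylase gene Egln1 (log2 fold change 1.13, SE 0.16, adjusted p = 0.00207) and Pfkl (log2 fold change 1.04, SE 0.17, adjusted p = 0.00404) were called higher within tdT+ cells. Of the 20 regulators, Egln1 was the 1 called higher there and 2 were called lower, while Pfkfb3 and Egln3 were not called. Pfkfb4 was among the 2 called lower, a call lost without the library labelled tdT+CD34+ replicate 2. Vegfa, a classical member of this class, did not pass (log2 fold change 0.40, SE 0.22, adjusted p = 0.23).

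In the pentose phosphate pathway, which branches off glucose 6-phosphate, 1 of 7 genes was called. G6pdx, its rate-limiting dehydrogenase, had 38.9, 26.7 and 14 CPM in tdT+CD34+, 20.2, 19.4 and 18.1 in tdTnegCD34+, 45.6, 60.7 and 51.9 in tdT+SCA-1+ and 47.5 and 44.3 in tdTnegSCA-1+ cells and was 2.17-fold higher (log2 fold change 1.12, SE 0.22, adjusted p = 0.00711). Transaldolase (Taldo1), the highest of this list per kb, did not pass (log2 fold change -0.05, SE 0.11, adjusted p = 0.77).

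Across the 11 libraries all 10 members varied less than the median gene tested. Their SD of log2 CPM ran from 0.20 for Hk1, which stood at the 6.95th percentile of all genes tested, to 0.55 for Slc2a1, at the 43.6th percentile. By the root mean square difference of centred log2 CPM, the 5 genes with the profile most like that of Slc2a1 were Rcc1 (0.14), Wnt4 (0.15), Ddx39 (0.17), Mcph1 (0.17) and S100a11 (0.18), beside an SD of 0.55 for the Slc2a1 profile itself. For Ldha they were Rap2a (0.18), Tmem51 (0.19), Dera (0.19), Eno1 (0.21) and Adcy7 (0.22), beside an SD of 0.46. These are descriptions over 11 libraries and 20306 other genes, and Eno1 was the 1 member among them.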

How the data were processed

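RNA of the 11 sorted libraries had been prepared with TRIzol and the Illumina TruSeq RNA v2 kit. Per the labels and the study's methods, the authors aligned the reads to the mouse genome (mm10) with STAR and counted them per gene of Ensembl release 96 with featureCounts; the deposited files hold raw counts per gene, not normalized, for 55536 genes in each library. The submitters' processing notes also name bcl2fastq 2.20.0.422, FastQC and DESeq2 1.18.1. The treatment of reads that match several places and the strand setting are not given in the sources used here. The 1 row outside the annotated genes (0.000205 to 0.0307% of a library) was kept out of totals and tests.

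Genes were named and placed by GENCODE M21, the same annotation. Counts were filtered with filterByExpr (20307 genes), scaled by TMM and fitted with edgeR 4.0.16 (R 4.3.3; quasi-likelihood test, 1 mean per group over all 11 libraries, Benjamini-Hochberg adjustment over all genes tested). Called genes had an adjusted p under 0.05 and differed by more than 2-fold in either direction, as in the study's methods. Intervals are 95% and cover the spread between libraries. Copies were sought with blastn 2.17.0. Totals of 17409131 to 46542177 counts limit the precision, the lowest member, Pgk1, having 8.72 CPM in its lowest library. The gene lists, like the members, were chosen with earlier results of these data known. Named were all 10 members, the called genes of the 5 pathway lists (up to 8 by adjusted p for each comparison), the highest gene of each list per kb, and the 5 genes most like Slc2a1 and Ldha; other genes named were chosen after their values were seen. Same-numbered libraries were read as sorts of 1 pool of 2 mice, since the study describes 3 biological replicates of that kind; after subtracting each group's mean, such pairs correlated with a median r of 0.083 over 15 pairs (-0.42 to 0.59), beside -0.023 over 30 other pairs. Alternatives were RLE size factors, DESeq2 1.42.0, other filters, the replicate block, only the groups compared, each library left out, and copies added. The values of 1 listed pathway gene are not reported here. Protein sequences were not used here.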

Additional observations from a re-analysis of the deposited data

How the results depend on the processing

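The 60 fold changes of the members were recomputed under 1120 settings in all. None of the estimates between the populations changed sign in the mean over tdT status or within tdT+ cells, and 41 settings reversed the sign of 16 other fold changes, none of them at an adjusted p under 0.05. With the fold threshold dropped, 6 members passed in the mean over tdT status and 6 within tdT+ cells, instead of 0 and 2. Within tdT+ cells the count past both thresholds was 1 with RLE size factors, with DESeq2, with at least 1 count in any library, with at least 10 counts in every library and with only the groups compared, and it ran from 1 to 5 with single libraries left out. The count of members higher at an adjusted p under 0.05 then ran from 5 to 7 in the mean over tdT status, from 3 to 6 within tdT+ cells and from 0 to 1 within tdTneg cells. Within tdTneg cells it was 1 with RLE size factors, 5 with DESeq2 and 1 with at least 10 counts in every library. The cause was not tested, and the shares of all genes under these settings are not given here. The other counts past both thresholds stayed at 0 with each library left out.

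With the replicate number as a block, the count at an adjusted p under 0.05 was 7 in the mean over tdT status and 7 within tdT+ cells, Gapdh being added (log2 fold changes 0.49 and 0.67). The shares of all genes with the block are not given here. The block changed no other call of a member, and in SCA-1+ cells it turned the tdT estimates of Gapdh (0.0908) and Pkm (0.0464).

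The remaining reversals were of small estimates. For tdT+ against tdTneg CD34+ cells, Gapdh was 0.0143 with copies by sequence added (an alternative chosen after seeing the data), and Pgk1 was 0.0749 with RLE size factors, 0.0756 with DESeq2, 0.0852 with at least 10 counts in every library and 0.0338 with only these groups. With single libraries left out, Hk2 ran from -0.40 to 0.37, Pgk1 from -0.0371 to 0.0463 and Ldha from -0.13 to 0.34. In SCA-1+ cells, Eno1 was -0.0175 with at least 1 count in any library, and with single libraries left out Pfkp ran from -0.0427 to 0.42, Gapdh from -0.31 to 0.20, Pgk1 from -0.0479 to 0.21, Eno1 from -0.14 to 0.20, Pkm from -0.23 to 0.14 and Ldha from -0.0905 to 0.37. Between the populations within tdTneg cells, Hk2 ran from -0.57 to 0.0844. In the interaction, Hk1 was -0.0161 with RLE size factors, -0.0159 with DESeq2 and -0.043 with at least 10 counts in every library. Pgk1 was -0.00569 with RLE size factors, -0.00728 with DESeq2 and -0.0327 with at least 10 counts. Ldha was -0.000666 with at least 10 counts, and Gapdh was -0.068 with copies by sequence added. With single libraries left out, Hk2 ran from -0.77 to 0.0111, Gapdh from -0.0952 to 0.46, Pgk1 from -0.0655 to 0.22 and Ldha from -0.19 to 0.33. A fit of only the groups compared gave no value for the mean over tdT status and the interaction, which need all groups. The tdTnegSCA-1+ group had 2 libraries, and with 1 left out the other is assumed to vary like the other groups.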
